A study of Mus musculus with 12 samples.

Results

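The 10 genes described here mark osteoclasts or lipid-associated macrophages, and they were measured by RNA sequencing in TC2Ras tumors. They are Atp6v0d2, Acp5, Ctsk, Mmp9, Dcstamp, Ocstamp, Spp1, Gpnmb, Trem2 and Cd9, and they make up 10 of the 55401 genes in the deposited count table. Each was found by the Ensembl ID that pairs with its symbol in the reference annotation. The set was put together because Atp6v0d2 was lower in tumors with ASC, so its members were selected on measured values under ASC, and the comparisons with and without ASC are given for these genes as a description, without p-values. A gene was called where it reached an edgeR adjusted p-value below 0.05 and differed by 1.5-fold or more. Where members passed this rule in a comparison with and without ASC, their number is given beside the share of all genes that did, and nothing is read from it.

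TC2Ras is a mouse prostate cancer line. All mice had low-arsenic AIN-76A chow and Milli-Q water for 2 weeks, and then received 125000 TC2Ras cells under the skin of both flanks. Control tumors grew from TC2Ras cells alone in mice drinking water with 0 ppb inorganic arsenic (iAs). ASC tumors grew from TC2Ras cells mixed with 1% ASC-GFP, primary adipose-derived stromal cells that carry green fluorescent protein, also at 0 ppb iAs. As300 tumors grew from TC2Ras cells alone with 300 ppb iAs in the water after implantation, and ASC_As300 tumors had both the 1% ASC-GFP and the 300 ppb iAs. Each group held 3 tumors taken at day 21, each combining the left and right flank of 1 mouse, so that flanks are not separate samples. The ASC were a small fraction of the cells implanted, and the labels name the stromal cells as the cell type of every library, although whole tumors were sequenced. Age, sex and strain of the mice are not given in the labels.

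Osteoclasts are large cells that form when precursors of the monocyte and macrophage lineage fuse, under the signals of M-CSF (Csf1) and RANKL (Tnfsf11). They seal off a patch of bone, pump acid onto it through a vacuolar proton pump (V-ATPase), and digest the matrix with secreted proteases. Many of the same genes are used by macrophages that take up lipid and dead cells in fat, injured tissue and tumors, where Trem2 senses lipid and Spp1 (osteopontin), Gpnmb and Cd9 are common markers. None of these genes belongs to 1 cell type alone, and in whole tumors fewer cells of a type and less RNA per cell cannot be told apart.

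The total count per tumor lay between 39157647 and 55168642, and all 10 genes were among the 20818 genes that passed the filter on low counts. Values are CPM, counts scaled to a common library total, after TMM scaling, which adjusts each total for its composition. On a principal component analysis Control replicate 1 stood apart, at 102 on the first component, where the other tumors lay between -64.9 and 22.5. Macrophage markers were abundant in every tumor. Of 23 other genes of osteoclast formation and identity, 22 had at least 1 tumor above 12 counts in every group. Among them the integrin chain Itgb3 had group means of 16.4 to 17.95 CPM, the receptor Siglec15 of 2.22 to 2.59 CPM and the factor Nfatc1 of 44.0 to 49.2 CPM. Oscar, also among the 22, had group means of only 0.308 to 0.518 CPM and 6 to 42 counts per tumor. The remaining gene was Calcr, the calcitonin receptor, at 0 counts in all Control and ASC tumors and at most 4 counts elsewhere. Of 7 osteoblast markers, 4 or 5 had no tumor above 12 counts, depending on the group. Runx2, also on that list, had group means of 52.0 to 61.2 CPM, where the 7 summed to 50.2 to 69.3 CPM over the 12 tumors. Which cells of the tumors the 10 genes came from was not tested.

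Regulatory sequence was read for the 6 genes with an entry in the RefSeq promoter table (GRCm38.p6), which are Acp5, Ctsk, Spp1, Gpnmb, Trem2 and Cd9. Atp6v0d2, Mmp9, Dcstamp and Ocstamp had none. The 250 bases before the start of Spp1, which was lower with ASC, and of Trem2, which was not, are shown to set the genes side by side. Capitals mark matches on either strand to GAGGAA, the core bound by the macrophage factor PU.1, and to TGANTCA. The latter is a looser form of the AP-1 site, which has C or G at its center. The Spp1 stretch lies at chr5:104434861-104435110 and the Trem2 stretch at chr17:48346151-48346400, both read on the plus strand.

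Spp1: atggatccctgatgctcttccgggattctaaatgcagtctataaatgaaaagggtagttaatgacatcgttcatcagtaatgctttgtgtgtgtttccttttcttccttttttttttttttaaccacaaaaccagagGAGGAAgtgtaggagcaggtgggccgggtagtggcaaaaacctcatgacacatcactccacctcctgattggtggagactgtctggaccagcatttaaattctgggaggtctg

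Trem2: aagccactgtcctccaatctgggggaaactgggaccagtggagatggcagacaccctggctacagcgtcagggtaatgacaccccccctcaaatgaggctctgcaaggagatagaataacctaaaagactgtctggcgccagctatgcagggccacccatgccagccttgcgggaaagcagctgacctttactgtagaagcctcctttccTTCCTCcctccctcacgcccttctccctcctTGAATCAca

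Spp1 held 1 PU.1 match, 113 bases before its start, and Trem2 held 1 PU.1 match at 40 bases before its start. Trem2 also held 1 match to the looser AP-1 form at 9 bases, TGAATCA, with A at the center and so not the AP-1 site itself. Ctsk also held the PU.1 letters, which occur in 23.3% of the 32851 stretches of this length, and TGANTCA occurred in 6.75%. CATGTG, a form of the M-box used by the factor MITF, occurred in Cd9 and in 12.3% of all stretches, and CACGTG in none of the 6 and in 6.02%. GGAAA, the NFAT core, occurred in 5 of the 6, without Ctsk, and in 55.6% of all stretches. TGNGGT, the RUNX core, occurred in Acp5, Gpnmb and Spp1 and in 40.1%. These are matches of letters in 1 window of each gene, and no binding was measured.

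The 10 genes covered a wide range of levels. Per kilobase of exon, Spp1 had the highest mean level over the 12 tumors with 252 CPM per kb, followed by Cd9 with 112, Ctsk with 23.6 and Acp5 with 11.7. Mmp9, Gpnmb and Trem2 were close together at 5.14, 5.12 and 4.97 CPM per kb. Atp6v0d2 followed with 1.06 CPM per kb, and the fusion genes Ocstamp and Dcstamp were lowest at 0.267 and 0.195. Cd9 varied least between tumors, with its highest tumor 1.46 times its lowest, and Ocstamp varied most, 6.48 times. ASC replicate 3 had the lowest level of 5 of the 10 genes (Atp6v0d2, Acp5, Dcstamp, Gpnmb and Spp1), and As300 replicate 3 had the highest level of 4 (Acp5, Ctsk, Ocstamp and Mmp9).

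**Figure D1:**
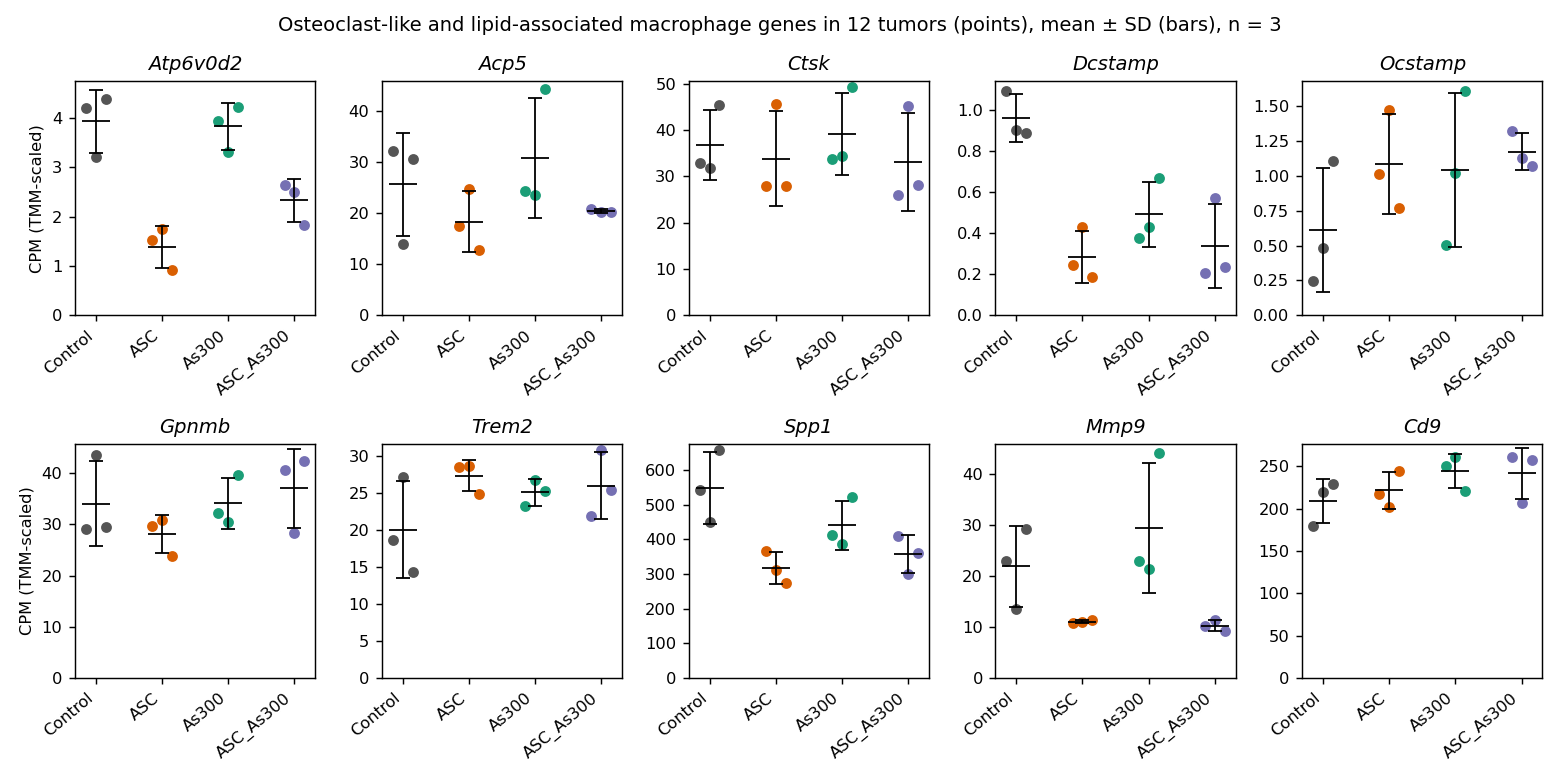
TMM-scaled CPM (y axis, from 0, own scale per gene) of the 10 genes in the 4 groups, with a point per tumor and bars at the mean ± SD of 3 tumors. Atp6v0d2 and Mmp9 are lower in all 6 tumors with ASC than in all 6 without, while Ctsk, Gpnmb, Trem2 and Cd9 overlap.

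Atp6v0d2 encodes the d2 subunit of the V-ATPase, the form of the subunit used by osteoclasts for acid secretion and for the fusion of their precursors (chr4:19876841-19922605, minus strand, GRCm38). Its level was 4.22, 3.20 and 4.38 CPM in the Control tumors and 1.52, 1.74 and 0.909 CPM in the ASC tumors. With iAs it was 3.95, 3.31 and 4.24 CPM in the As300 tumors and 2.64, 2.51 and 1.84 CPM in the ASC_As300 tumors. Every tumor with ASC was below every tumor without, and the groups with ASC did not overlap each other, with ASC_As300 the higher. The mean was 3.93 ± 0.638 CPM in Control, 1.39 ± 0.431 in ASC, 3.83 ± 0.474 in As300 and 2.33 ± 0.430 in ASC_As300 (SD, n = 3). The log2 fold change was -1.50 ± 0.29 (SE) for ASC against Control, a level 64.7% lower, and -0.72 ± 0.28 for ASC_As300 against As300, 39.2% lower. It rests on 39 to 240 counts per tumor. Leaving out 1 tumor at a time, the change without iAs ran from -1.69 to -1.27 and that with iAs from -0.83 to -0.57.

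Mmp9 encodes gelatinase B, a secreted protease of osteoclasts, macrophages and neutrophils (chr2:164940780-164955850, plus strand, GRCm38). It reached 23.04, 13.5 and 29.3 CPM in Control, and 10.8, 10.99 and 11.4 CPM in ASC. It reached 23.02, 21.3 and 44.2 CPM in As300, and 10.3, 11.3 and 9.26 CPM in ASC_As300. The 6 tumors with ASC lay close together, and all were below the 6 tumors without, which were spread widely. The log2 fold change was -0.99 ± 0.29 (SE) without iAs and -1.52 ± 0.29 with iAs, levels 49.6% and 65.2% lower. As300 replicate 3 had the highest level, and without it the change with iAs was -1.13. Mmp9 is also a neutrophil gene, and the summed level of 10 neutrophil markers lay between 8.16 and 16.1 CPM in Control and between 13.1 and 19.8 in ASC, and with iAs between 8.20 and 10.5 without ASC and between 12.05 and 16.01 with it. In group means, most of this sum was Csf3r, the G-CSF receptor, at 7.55 ± 1.89 CPM in Control, 12.4 ± 2.44 in ASC, 6.62 ± 1.45 in As300 and 9.81 ± 1.18 in ASC_As300 (SD, n = 3). The other 9 markers summed to 2.63 to 8.12 CPM in Control and 3.12 to 5.01 in ASC, which overlapped, and to 2.26 to 3.28 CPM in As300 and 3.12 to 5.02 in ASC_As300, which also overlapped. S100a8 was at 1.10 ± 0.774 CPM in Control and 0.797 ± 0.0647 in ASC, and S100a9 at 1.07 ± 0.0765 and 0.629 ± 0.185. With iAs S100a8 was at 0.552 ± 0.199 CPM in As300 and 0.266 ± 0.0793 in ASC_As300, while S100a9 was higher with ASC, at 0.774 ± 0.164 and 1.03 ± 0.227. The part of neutrophils in the level of Mmp9 was not tested. Depending on the group, 2 to 4 of the markers had no tumor above 12 counts, and Mpo was at 0 in all ASC, As300 and ASC_As300 tumors. Over both iAs levels none of the 7 neutrophil markers tested was called, from -0.75 for S100a8 to 2.44 for Ltf on the log2 scale. Of these 7, 4 were higher and 3 lower, with a median of 0.27. In ASC against Control 3 were higher and 4 lower, and in ASC_As300 against As300 5 were higher and 2 lower.

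Acp5, the tartrate-resistant acid phosphatase that stains osteoclasts (chr9:22126727-22135711, minus strand, GRCm38), was less regular. It measured 32.2, 13.97 and 30.6 CPM in Control, and 17.5, 24.7 and 12.8 CPM in ASC. It measured 24.4, 23.6 and 44.2 CPM in As300, and 20.9, 20.1 and 20.1 CPM in ASC_As300. The groups overlapped without iAs, where Control replicate 2 was low, and did not overlap with iAs. The log2 fold change was -0.48 ± 0.32 (SE) without iAs and -0.59 ± 0.32 with iAs. Leaving out 1 tumor at a time, the changes ran from -0.76 to -0.27 and from -0.75 to -0.25.

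Ctsk, cathepsin K, the collagen-cleaving protease of osteoclasts that fibroblasts also make (chr3:95499256-95509362, plus strand, GRCm38), overlapped in all pairs of groups. It measured 32.98, 31.8 and 45.5 CPM in Control, and 27.8, 45.7 and 27.9 CPM in ASC. It measured 33.8, 34.5 and 49.3 CPM in As300, and 25.9, 45.3 and 28.1 CPM in ASC_As300. In each group 1 tumor was well above the other two, and the log2 fold change under ASC was -0.12 ± 0.25 (SE) without iAs and -0.24 ± 0.25 with iAs. The summed level of 10 fibroblast markers overlapped likewise, between 6166 and 7923 CPM in Control and 7338 and 10734 CPM in ASC, and between 5720 and 7089 CPM in As300 and 6637 and 8566 CPM in ASC_As300. None of the 10 was called over both iAs levels, from -0.22 for Lum to 0.34 for Col3a1 on the log2 scale.

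Dcstamp and Ocstamp encode membrane proteins that osteoclast precursors need for fusion, and both were near the lower limit of measurement. Dcstamp (chr15:39745930-39760938, plus strand, GRCm38) was at 1.10, 0.902 and 0.890 CPM in Control, and at 0.243, 0.429 and 0.187 CPM in ASC. It was at 0.375, 0.429 and 0.671 CPM in As300, and at 0.205, 0.573 and 0.237 CPM in ASC_As300. The 3 Control tumors were above all 9 others, so that Dcstamp was lower with ASC and also with iAs alone. It rests on 41 to 53 counts in Control tumors and 8 to 16 counts in ASC tumors. The log2 fold change for ASC against Control was -1.75 ± 0.54 (SE), the largest of the 10 genes in size. With iAs the change was -0.54 ± 0.53, and -1.16 without ASC_As300 replicate 2.

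Ocstamp (chr2:165393760-165400405, minus strand, GRCm38) did not follow Dcstamp. It was at 0.248, 0.480 and 1.11 CPM in Control, and at 1.01, 1.47 and 0.769 CPM in ASC. It was at 0.500, 1.02 and 1.61 CPM in As300, and at 1.32, 1.13 and 1.07 CPM in ASC_As300. All pairs of groups overlapped, and the log2 fold change was 0.83 ± 0.55 (SE) for ASC against Control, 1.58 without Control replicate 3 and 0.46 without Control replicate 1. Counts ran from 12 to 91 per tumor.

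Spp1 encodes osteopontin, a secreted matrix protein that osteoclasts bind and lipid-associated macrophages release (chr5:104435118-104441050, plus strand, GRCm38). It measured 542, 449 and 657 CPM in Control, and 367, 311 and 275 CPM in ASC. It measured 414, 386 and 522 CPM in As300, and 409, 300.1 and 361 CPM in ASC_As300. All ASC tumors were below all Control tumors, while with iAs the groups overlapped between 386 and 409 CPM. The log2 fold change was -0.79 ± 0.17 (SE) for ASC against Control, a level 42.1% lower, and -0.30 ± 0.17 for ASC_As300 against As300, 19.0% lower. Over both iAs levels the change was -0.55 ± 0.12.

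Trem2, the lipid-sensing receptor of macrophages (chr17:48346401-48354147, plus strand, GRCm38), measured 18.6, 27.2 and 14.3 CPM in Control, and 28.4, 28.6 and 24.9 CPM in ASC. It measured 23.2, 26.8 and 25.2 CPM in As300, and 21.9, 30.8 and 25.3 CPM in ASC_As300. ASC against Control gave a log2 fold change of 0.45 ± 0.20 (SE), 0.27 without Control replicate 3, the lowest tumor, and 0.75 without Control replicate 2, the highest Control tumor. With iAs the change was 0.05 ± 0.20.

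Gpnmb, a glycoprotein of lysosomes in macrophages and osteoclasts (chr6:49036546-49070929, plus strand, GRCm38), measured 29.1, 43.6 and 29.5 CPM in Control, and 29.7, 30.8 and 23.8 CPM in ASC. It measured 32.3, 30.4 and 39.7 CPM in As300, and 40.5, 28.2 and 42.3 CPM in ASC_As300. The groups overlapped, with log2 fold changes of -0.28 ± 0.19 (SE) without iAs and 0.12 ± 0.19 with iAs. Gpnmb is also a melanocyte gene, and of 6 melanocyte markers 5 were at or under 12 counts in every group, with summed levels of 0.198 to 1.16 CPM over the 12 tumors.

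Cd9, a membrane tetraspanin of macrophages, platelets and many other cells (chr6:125460266-125494791, minus strand, GRCm38), was the most even. It measured 179, 219 and 229 CPM in Control, and 217.5, 202 and 244.5 CPM in ASC. It measured 251, 261 and 221 CPM in As300, and 261, 206 and 257 CPM in ASC_As300, and all groups overlapped. The log2 fold change under ASC was 0.08 ± 0.12 (SE) without iAs and -0.02 ± 0.12 with iAs. The summed level of 6 platelet and megakaryocyte markers ran from 44.7 to 77.7 CPM over the 12 tumors.

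**Figure D2:**
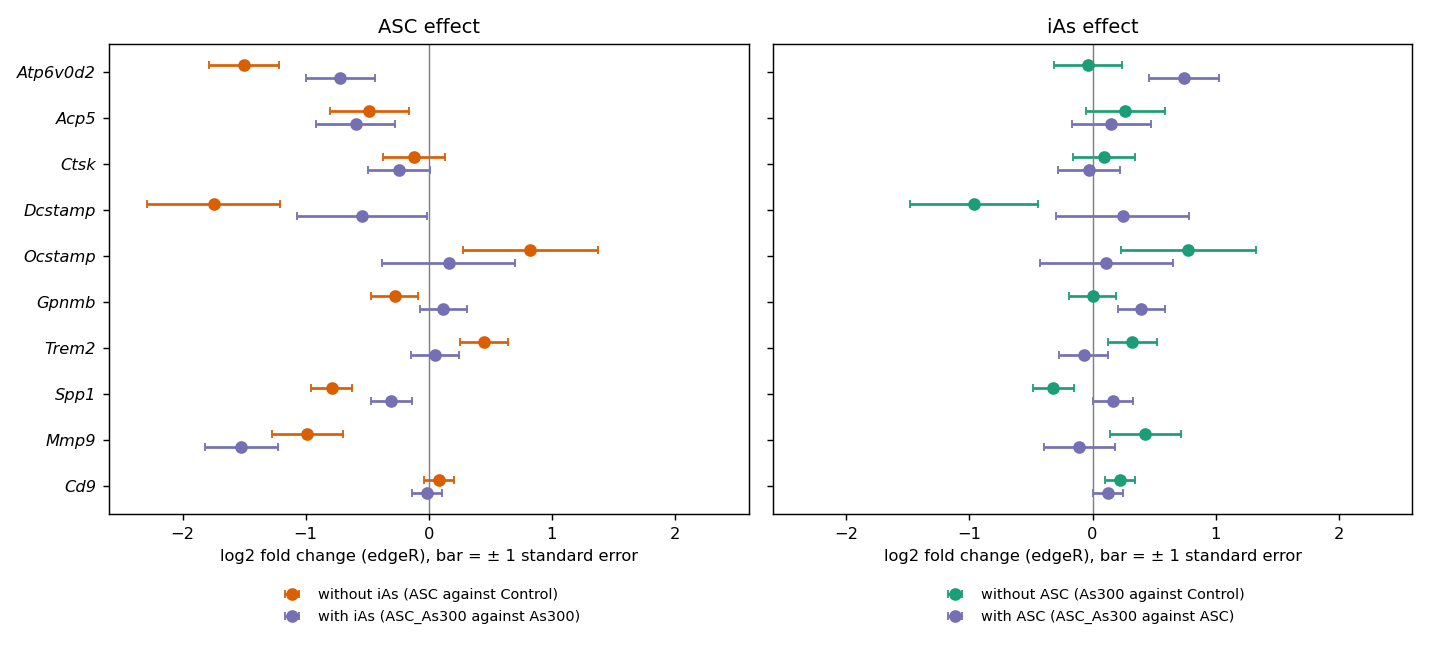
Log2 fold change from edgeR (x axis) of each gene under ASC (left) and under iAs (right), with the point at the estimate and the bar at ± 1 standard error. Under ASC, Atp6v0d2, Acp5, Ctsk, Dcstamp, Spp1 and Mmp9 lie below 0 with and without iAs, while under iAs the points lie on both sides of 0, from -0.96 for Dcstamp to 0.78 for Ocstamp, both without ASC.

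The counts over the set that follow belong to comparisons with ASC, on whose values the genes were chosen. In ASC against Control 1 of the 10 genes passed the call rule, Atp6v0d2, where 0.721% of all 20818 genes tested did. Its call was lost without ASC replicate 3, ASC_As300 replicate 1, ASC_As300 replicate 2, Control replicate 1 or Control replicate 3. DESeq2 called 3 of the 8 members for which it gave an adjusted p-value, Atp6v0d2, Spp1 and Mmp9, where 3.18% of all genes with one were called. The groups did not overlap for 4 genes, all lower with ASC (Atp6v0d2, Dcstamp, Spp1 and Mmp9), where 9.01% of all genes were lower without overlap. The median log2 fold change of the 10 genes was -0.38, and that of all genes was -0.0044.

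In ASC_As300 against As300 the 1 gene that passed the rule was Mmp9, where 0.855% of all genes did. It no longer passed without As300 replicate 3 or ASC_As300 replicate 1, 2 or 3. The groups did not overlap for Atp6v0d2, Acp5 and Mmp9, all lower, where 8.37% of all genes were lower without overlap. The median log2 fold change of the 10 genes was -0.27.

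Over both iAs levels, with 6 tumors against 6, Mmp9 and Atp6v0d2 passed, where 1.45% of all genes did, and this comparison holds the tumors that chose Atp6v0d2. Atp6v0d2 ranged from 0.909 to 2.64 CPM with ASC (median 1.79) and from 3.20 to 4.38 CPM without (median 4.08), a log2 fold change of -1.11 ± 0.20 (SE). Mmp9 ranged from 9.26 to 11.4 CPM with ASC (median 10.9) and from 13.5 to 44.2 CPM without (median 23.0), a log2 fold change of -1.25 ± 0.21. These 2 genes were the members whose groups did not overlap, where 0.216% of all genes were lower without overlap and 1.68% higher. The remaining changes were -1.15 ± 0.38 for Dcstamp, -0.55 ± 0.12 for Spp1, -0.54 ± 0.23 for Acp5, -0.18 ± 0.18 for Ctsk, -0.08 ± 0.13 for Gpnmb, 0.03 ± 0.08 for Cd9, 0.25 ± 0.14 for Trem2 and 0.49 ± 0.39 for Ocstamp.

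ASC_As300 against Control shares its Control tumors with the first of these comparisons. The groups did not overlap for Atp6v0d2, Dcstamp, Spp1 and Mmp9, all lower, where 12.2% of all genes were lower without overlap. The log2 fold changes of these 4 genes were -0.75 ± 0.28 (SE), -1.50 ± 0.53, -0.62 ± 0.17 and -1.09 ± 0.29. By edgeR no member passed the rule, where 0.807% of all genes did, and by DESeq2 Spp1 and Mmp9 did, where 2.53% did.

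The effect of iAs was not used to choose the genes, and adjusted p-values are given for As300 against Control and for iAs over both ASC levels. As300 against Control shares its Control tumors with the comparison that chose Atp6v0d2. The labels do not say how the mice were housed or batched, so that p-values measure the spread between these 3 tumors of a group. As300 against Control called none of the 10 genes, where 1.06% of all genes were called, and none had an unadjusted p-value under 0.05 by edgeR (24.1% of all genes) or a call by DESeq2 (5.07%). The smallest edgeR adjusted p-value was 0.264, for Spp1, which measured 440 ± 71.6 CPM in As300 and 549 ± 104 CPM in Control (SD, n = 3), a log2 fold change of -0.32 with a 95% interval from -0.68 to 0.04. Cd9 followed, at 244 ± 20.5 against 209 ± 26.4 CPM, with a log2 fold change of 0.23 (interval -0.04 to 0.49, edgeR adjusted p = 0.278). Dcstamp, the 1 gene of the 10 without overlap here (15.4% of all genes were lower without overlap), had a log2 fold change of -0.96 with an interval from -2.09 to 0.17 (edgeR adjusted p = 0.288). For Atp6v0d2 the log2 fold change was -0.04 with an interval from -0.64 to 0.56 (edgeR adjusted p = 0.957). No other member had an edgeR adjusted p-value below 0.35 in this comparison.

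ASC_As300 against ASC and the interaction both hold the ASC tumors whose low level chose Atp6v0d2, so their values for the 10 genes are a description. In ASC_As300 against ASC no gene of the 20818 was called by edgeR (0%), and 3.21% had an unadjusted p-value under 0.05, with Atp6v0d2 the 1 member among them. DESeq2 called 0.0353% of all genes and no member. Atp6v0d2 was higher in all 3 ASC_As300 tumors than in all 3 ASC tumors, with a log2 fold change of 0.75 ± 0.28 (SE), where 4.17% of all genes were higher without overlap. Gpnmb was 0.40 ± 0.19 higher on the log2 scale, with 2 of 3 ASC_As300 tumors above all ASC tumors.

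Whether the change under ASC differed with iAs is asked by the interaction, which called no gene of the 20818 (0%). DESeq2 called 1.04% of all genes and no member. For Atp6v0d2 the difference between the log2 fold change with iAs and that without was 0.78, with a 95% interval from -0.07 to 1.64. For Spp1 it was 0.49, from -0.02 to 0.99, for Dcstamp 1.21, from -0.42 to 2.83, and for Mmp9 -0.54, from -1.42 to 0.35. All 4 intervals include 0. They hold the tumors on which Atp6v0d2 was chosen, so nothing is read from them about a difference between the iAs levels. Over both ASC levels iAs called no gene of all 20818 (0%), while 16% had an unadjusted p-value under 0.05, no member among them, and DESeq2 called 0.771% and no member. Cd9 came nearest, at a log2 fold change of 0.18 ± 0.08 (SE) and an edgeR adjusted p-value of 0.338.

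**Figure D3:**
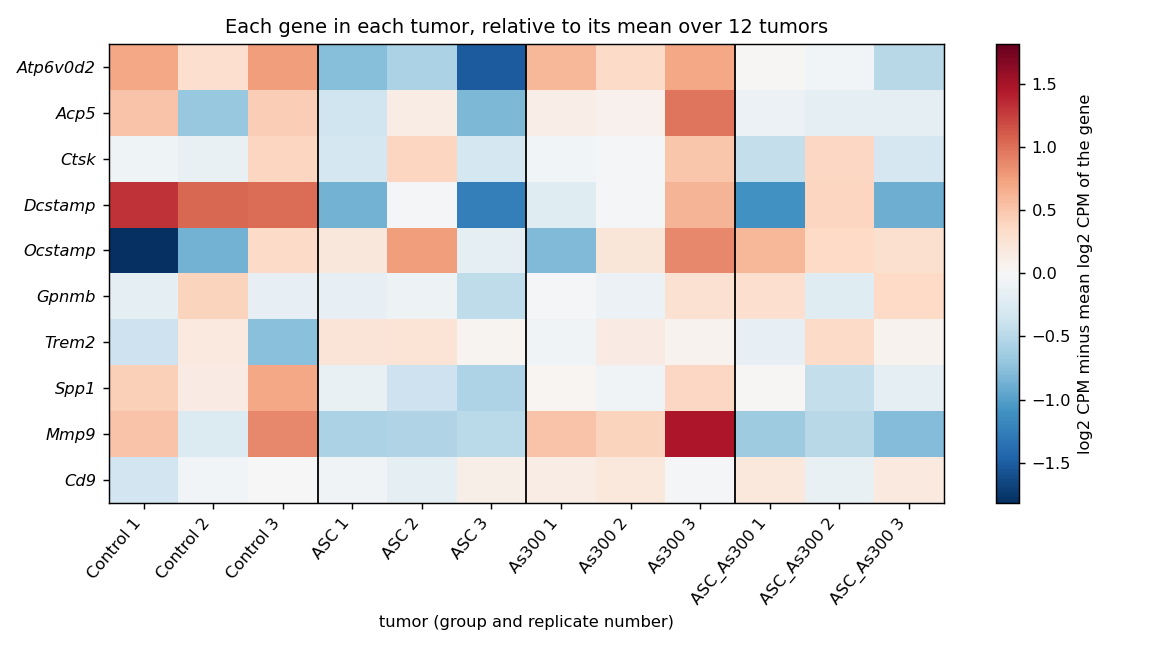
Log2 CPM of each gene in each of the 12 tumors minus the mean of that gene over all tumors (color, red higher and blue lower), with lines between the 4 groups. Atp6v0d2, Spp1 and Mmp9 are red or pale in most tumors without ASC and blue or pale with ASC, Trem2 is blue in Control 1 and 3 and Ocstamp in Control 1 and 2, and Cd9 is pale throughout.

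The wider pathways were read from lists of other genes. These lists, and the cell marker lists below, were written with earlier results of these data known. Their p-values are therefore not an independent test of a pathway or cell type. Of 23 genes that signal for osteoclast formation, 22 were tested, and over both iAs levels 2 were called, both higher with ASC. Of all genes 1.45% were called, 1.36% higher and 0.0865% lower, so most called genes were higher with ASC. The median log2 fold change of the 22 was 0.08, and that of all genes was -0.0042. Fcer1g, an adaptor chain that passes costimulation to osteoclast precursors and is also carried by other myeloid cells, rose with ASC, from 49.0 ± 4.99 CPM in Control to 91.6 ± 9.31 in ASC (SD, n = 3), a log2 fold change of 0.90 ± 0.12 (SE, edgeR adjusted p = 0.00202). Over both iAs levels it rose by 0.75 ± 0.08 (edgeR adjusted p = 0.00021). Its change in ASC_As300 against As300 (0.60 ± 0.12, edgeR adjusted p = 0.0309) lay just above the 1.5-fold needed. This call was lost with DESeq2 (0.57, DESeq2 adjusted p = 0.00071), with DESeq2 size factors, with no filter on low counts, with counts divided by 4, with the replicate block and with the tumors compared alone, at 0.56 to 0.59. It was also lost in 9 of the 12 fits that leave out a tumor, and over all 12 the change ran from 0.49 to 0.70. Irf8, a factor that restrains osteoclast formation, rose by 0.69 ± 0.16 over both iAs levels (edgeR adjusted p = 0.0477). This call was lost with DESeq2 size factors, with no filter, with the replicate block and in 10 of the 12 such fits. Over all 12 fits its change ran from 0.60 to 0.88. Tyrobp, the adaptor that pairs with Trem2, was 0.49 ± 0.09 higher over both levels (edgeR adjusted p = 0.0116), below the 1.5-fold needed for a call.

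Of the central osteoclast signals, none was called over both iAs levels. Tnfsf11, which encodes RANKL, was the lowest of the list, with a log2 fold change of -0.56 ± 0.29 (SE) over both iAs levels (edgeR adjusted p = 0.532), at 0.489 to 1.86 CPM over the 12 tumors. Its receptor Tnfrsf11a was 0.36 ± 0.15 higher (edgeR adjusted p = 0.399). Csf1 changed by 0.04 ± 0.09 (edgeR adjusted p = 0.923), its receptor Csf1r by 0.21 ± 0.13 (edgeR adjusted p = 0.633), the osteoclast master factor Nfatc1 by 0.08 ± 0.08 (edgeR adjusted p = 0.784) and Mitf by -0.03 ± 0.13 (edgeR adjusted p = 0.970). Spi1, which encodes PU.1, was 0.45 ± 0.09 higher (edgeR adjusted p = 0.0216), below the minimum fold change. It was called in ASC_As300 against Control, at 0.60 ± 0.13 (edgeR adjusted p = 0.0495), a call lost with DESeq2 size factors, with no filter, with the replicate block, with the tumors compared alone and in 10 of the 12 fits that leave out a tumor, at 0.46 to 0.69.

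The rest of the proton pump did not move with Atp6v0d2. Of 22 other genes of the V-ATPase and of acid secretion, 1 was called over both iAs levels, and the median log2 fold change was -0.04. Atp6v0d1, which encodes the d1 subunit found in most cells, was at 43.2 ± 2.90 CPM per kb in Control and 46.1 ± 3.57 in ASC, against 1.45 and 0.512 CPM per kb for Atp6v0d2. Its log2 fold change was 0.01 ± 0.06 (SE, edgeR adjusted p = 0.973). The called gene was Snx10, a sorting nexin needed for acid secretion by osteoclasts, which rose by 0.63 ± 0.07 (edgeR adjusted p = 0.000197) and by 0.78 ± 0.10 with iAs (edgeR adjusted p = 0.00127). Atp6ap2 was lowest over both levels, at -0.17 ± 0.07 (edgeR adjusted p = 0.345).

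Of 21 other lipid-associated macrophage genes, 3 were called over both iAs levels, all higher with ASC, as were most called genes of the 20818 (1.36% higher, 0.0865% lower). The median of the 21 was 0.03. Clec7a, the receptor dectin-1, rose by 0.92 ± 0.14 (SE, edgeR adjusted p = 0.00249). Itgax, the integrin CD11c, rose by 0.97 ± 0.16 (edgeR adjusted p = 0.00464), and Cst7, cystatin F, rose by 1.23 ± 0.24 (edgeR adjusted p = 0.0169), a call lost in 6 of the 12 fits that leave out a tumor. All 3 genes are also used by dendritic cells or other leukocytes. Apoe changed by 0.20 ± 0.09 (edgeR adjusted p = 0.454), and Ctsl was lowest at -0.17 ± 0.09 (edgeR adjusted p = 0.569). Under iAs the lowest of this list was Fabp4, a fatty acid binding protein that adipocytes also make, at 48.7 ± 7.98 CPM in As300 and 133 ± 49.6 in Control (SD, n = 3), a log2 fold change of -1.45 ± 0.66 (SE, edgeR adjusted p = 0.198).

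**Figure D4:**
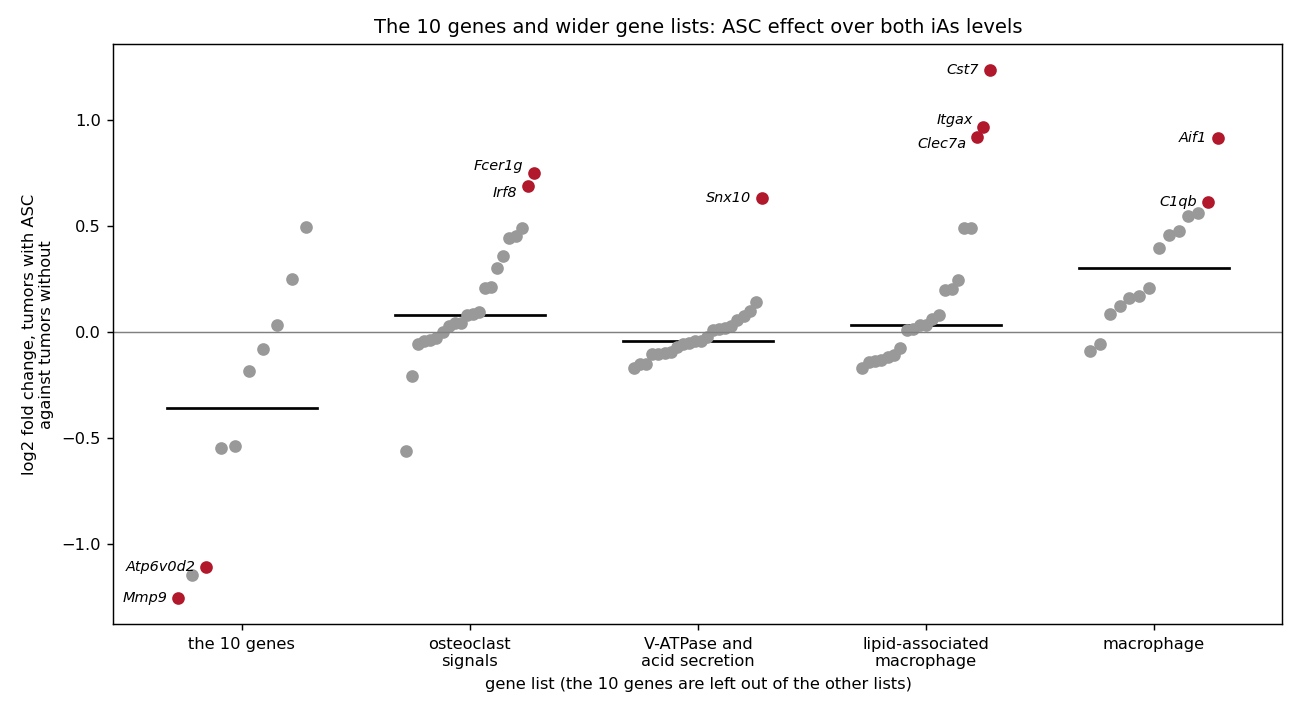
Log2 fold change under ASC over both iAs levels (y axis) of the 10 genes and of 4 wider gene lists (x axis), with a point per gene in order of its change, a black line at the median of the list, and called genes in red. Called genes of the 10 lie below 0 and those of the 4 other lists above 0. Of all genes tested, 1.36% were called higher with ASC and 0.0865% lower.

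Markers of other cells moved with ASC too, and their part in the values of the 10 genes was not tested. The summed level of 14 macrophage markers was between 1665 and 2107 CPM in Control, where ASC had 2025 to 2990 CPM, and between 2094 and 2217 CPM in As300, where ASC_As300 had 2271 to 2763 CPM, and none of them was at or under 12 counts. Their median log2 fold change over both iAs levels was 0.30, opposite in sign to that of the 10 genes. Aif1 rose by 0.92 ± 0.12 (SE, edgeR adjusted p = 0.000828) and C1qb by 0.61 ± 0.09 (edgeR adjusted p = 0.00213), and the call of C1qb was lost without ASC_As300 replicate 2, ASC replicate 2 or Control replicate 3, at 0.55 in the last of these. Mertk was the lowest, at -0.09 ± 0.11 (edgeR adjusted p = 0.845). C1qa and C1qc, which with C1qb form complement C1q, were called in ASC against Control, at 0.81 ± 0.11 (edgeR adjusted p = 0.00221) and 0.81 ± 0.12 (edgeR adjusted p = 0.0042), the second lost with the tumors compared alone (edgeR adjusted p = 0.0522). Under iAs alone 1 macrophage marker was called, Cd14, at 0.59 ± 0.11 (edgeR adjusted p = 0.0404), a call lost with no filter, with the tumors compared alone and in 10 of the 12 fits that leave out a tumor, at 0.49 to 0.70.

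The summed level of 8 epithelial markers was lower with ASC without overlap, at 67.2 to 363 CPM in Control and 98.1 to 121 in As300 against 32.0 to 49.0 in ASC and 27.3 to 42.2 in ASC_As300. Most of it was Krt8, which fell by 2.03 ± 0.34 (SE) on the log2 scale over both iAs levels (edgeR adjusted p = 0.00632). Control replicate 1, the library that stood apart, had the highest Krt8, and without it the change was -1.48. No other epithelial marker was called, and Krt5 was the highest of the list at 2.62 and Cldn4 the lowest at -2.29. For the 10 genes, leaving out the same tumor gave log2 fold changes for ASC against Control of -1.44 for Atp6v0d2, -1.64 for Dcstamp, -0.79 for Spp1 and -0.94 for Mmp9. Skeletal muscle markers summed to 1.43 to 1799 CPM in Control (median 5.03) and 48.5 to 367 in ASC (median 132). With iAs the sums were 3.90 to 1787 CPM in As300 (median 30.5) and 4.65 to 119 in ASC_As300 (median 45.8). The median tumor was thus higher with ASC at both iAs levels. Over both iAs levels the median log2 fold change was -2.67, opposite in sign, from -3.02 for Myh4 to -1.95 for Mylpf. None of the 6 was called. Adipocyte markers summed to 8.22 to 404 CPM in ASC (median 15.2) and 68.3 to 178 in Control (median 120), so that the median tumor was lower with ASC. For ASC against Control their log2 fold changes ran from -0.36 for Lep to 0.77 for Retn, with 4 of 6 higher and a median of 0.03. Over both iAs levels they ran from -0.91 for Lep to -0.04 for Retn. None of the 6 was called in either comparison. Under iAs the same 6 markers were all lower in As300 than in Control without overlap, where 15.4% of all genes were. The sums were 10.3 to 33.6 CPM in As300 (median 28.7), where the ASC tumors, without iAs, had a median of 15.2. For As300 against Control the median log2 fold change of the 6 markers was -2.31. It ran from -2.997 for Plin1 (edgeR adjusted p = 0.175) to -1.80 for Lep (edgeR adjusted p = 0.413), and none was called. Over both ASC levels the median was -2.86 and all 6 were again lower, with none called by edgeR and Plin1, Cidec and Cfd at DESeq2 adjusted p-values of 0.03, 0.0383 and 0.0476. This last comparison includes the ASC tumor at 404 CPM.

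Across the 12 tumors, the genes whose log2 CPM most resembled that of Atp6v0d2 among 14583 genes were Car8 (Pearson r = 0.93), Trpm6 (0.90), Ippk (0.89), Gm19557 (0.89) and Slc27a1 (0.88). These values are a description over 12 tumors that share the 4 groups, so that genes lower with ASC are correlated through the groups. Car8 was at 1.19 ± 0.109 CPM in Control, 0.528 ± 0.213 in ASC, 1.47 ± 0.235 in As300 and 0.985 ± 0.106 in ASC_As300 (SD, n = 3), lower with ASC at both iAs levels. Of the other 9 genes of the set, Spp1 was most alike, with r = 0.82 and rank 40, then Mmp9 with 0.76 (rank 106), Dcstamp with 0.75 (rank 129) and Acp5 with 0.71 (rank 198). Ctsk (0.44, rank 1576) and Gpnmb (0.33, rank 2608) were less alike. Cd9 (r = -0.16, Spearman's rho = 0.042) and Ocstamp (r = -0.24, rho = 0) showed no clear relation, and Trem2 had r = -0.49 and rho = -0.57 (rank 13004).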

How the data were processed

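RNA from 12 tumors in 4 groups of 3 was sequenced as paired ends from stranded poly(A) libraries. The authors used cutadapt 1.1.0 for trimming, HISAT2 2.0 for alignment and StringTie 1.3.4 for quantification (versions from the submitters' processing notes), and they deposited whole-number counts per Ensembl gene without normalization. The genome build, the annotation and the step that made the counts are not given in the sources used here. Gene names and coordinates were matched by Ensembl ID to GENCODE M21 (GRCm38).

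Genes were filtered with filterByExpr by group (20818 kept), scaled by TMM and fitted with edgeR 4.0.16 in R 4.3.3, 1 mean per group over all 12 tumors, with the quasi-likelihood F test (two-sided) and Benjamini-Hochberg adjustment over all genes kept. Log2 CPM for correlations carried a prior count of 2. A floor of 12 counts was set because the counts per read pair are not known. Intervals are at 95%. The procedure was tested on simulated data.

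The 10 genes and all lists were chosen with earlier results of these data known. Named genes are the 10, the called genes of each list (at most 4), the highest and lowest genes of most lists under ASC, 9 further pathway genes, and the 5 genes most like Atp6v0d2. Calcr, Itgb3, Siglec15, Oscar, Runx2, Csf3r, S100a8, S100a9, Mpo and the lowest genes under iAs were named after their values were seen. The alternatives were DESeq2 1.42.0, its size factors, no filter, no minimum fold change, counts divided by 4, the tumors compared alone, a replicate block, and leaving out each tumor.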

Additional observations from a re-analysis of the deposited data

How the results depend on the processing

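With 3 tumors a group the calls of single genes were near the threshold, and counts of the 10 genes under ASC describe genes chosen on these tumors. For ASC against Control the 1 call among the 10 genes (Atp6v0d2) became 3 with DESeq2 (Atp6v0d2, Spp1 and Mmp9), 2 with counts divided by 4 (Atp6v0d2 and Spp1), 0 with the tumors compared alone, and 0 to 2 leaving out a tumor. For ASC_As300 against As300 it was 0 to 1 leaving out a tumor, and 1 in every other setting. For ASC_As300 against Control DESeq2 called 2 in place of 0. Over both iAs levels Atp6v0d2 and Mmp9 were called in all 18 alternatives. The cause of these differences was not tested.

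The labels tie no replicate numbers to a batch, and the main fit did not pair tumors by number. Deviations of same-numbered tumors correlated at -0.124 to 0.172, and those of differently numbered tumors at -0.222 to 0.246. With 3 tumors a group these values cannot exclude a batch shared by a number. With a replicate block 1 member was called in ASC against Control, Spp1 in place of Atp6v0d2, 1 in ASC_As300 against As300, and 2 over both iAs levels.

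Leaving out a tumor, the median log2 fold change of the 10 genes ran from -0.58 to -0.23 for ASC against Control, -0.074 to 0.23 for As300 against Control and -0.22 to 0.16 for the interaction. Changes near 0 turned sign. For As300 against Control they ran from -0.065 to 0.48 for Acp5, -0.14 to 0.074 for Atp6v0d2 (0.0072 with counts divided by 4), -0.082 to 0.30 for Ctsk and -0.10 to 0.24 for Gpnmb. For ASC_As300 against ASC they ran from -0.046 to 0.43 for Acp5, -0.33 to 0.25 for Ctsk, -0.37 to 0.65 for Dcstamp, -0.079 to 0.39 for Ocstamp and -0.22 to 0.036 for Trem2. Over both ASC levels they ran from -0.11 to 0.17 for Ctsk, -0.035 to 0.30 for Mmp9 and -0.13 to 0.0093 for Spp1. For the interaction they ran from -0.33 to 0.21 for Acp5 and -0.44 to 0.16 for Ctsk.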
